A study of Mus musculus with 99 samples.

Results

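The Ikaros family and the Insm genes are described here as 7 rows of a count table of single hair cells of the mouse cochlea, chosen by name: Ikzf1, Ikzf2, Ikzf3, Ikzf4, Ikzf5, Insm1 and Insm2. The table holds 55291 gene symbols, and all 7 names were among them. Full-length cDNA had been sequenced from 99 cells of C57BL/6 mice, each picked by hand for its tdTomato fluorescence and each deposited as a sample of its own. The first group held 32 wild-type outer hair cells (OHCs) of postnatal day 30 from Slc26a5-CreER/+; Ai9/+ mice, in which a tamoxifen-dependent Cre made from the prestin locus turns on a tdTomato reporter. The second group held 67 converted inner hair cells (cIHCs) of postnatal day 42 from Slc26a5-CreER/+; Rosa26Tbx2/+ mice, in which the same Cre turns on ectopic Tbx2 in OHCs. All cells thus carried the Cre. Because age and genotype changed together, their parts cannot be told apart. No label names an animal, and all cells of a group were therefore treated as 1 sample. The values below compare 2 such samples, without replicates and without tests.

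Ikaros proteins are zinc finger transcription factors that bind DNA with a set of fingers near one end and pair with each other through fingers at the opposite end. Ikzf1 (Ikaros) and Ikzf3 (Aiolos) are known from lymphocytes, whereas Ikzf2 (Helios) is a regulator that OHCs need to mature and to keep genes of inner hair cells (IHCs) low. Insm1 is a zinc finger repressor of developing neurons and endocrine cells. It is made for a short time in newborn OHCs, where it keeps them from taking the IHC path, and Insm2 is its close relative.

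The coding sequence shows how alike, and how separable, the Ikaros genes are. The stretch shown is the 90-base window of the Ikzf2 coding sequence, within 1 exon, that matched its nearest relatives best without gaps, read from the GENCODE M21 transcripts on build GRCm38 (mm10). It lies in the zinc fingers through which the proteins pair. Capitals mark bases that differ from Ikzf2.
Ikzf2: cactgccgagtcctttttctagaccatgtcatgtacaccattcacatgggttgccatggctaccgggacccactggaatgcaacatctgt
Ikzf1: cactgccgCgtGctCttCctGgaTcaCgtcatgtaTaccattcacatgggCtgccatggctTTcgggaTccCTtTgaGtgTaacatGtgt
Ikzf5: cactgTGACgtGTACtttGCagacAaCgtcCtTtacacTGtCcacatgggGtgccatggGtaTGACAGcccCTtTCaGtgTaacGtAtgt

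The windows lie at chr1:69538837-69538926 on the minus strand in Ikzf2, chr11:11769417-11769506 on the plus strand in Ikzf1 and chr7:131391706-131391795 on the minus strand in Ikzf5. Ikzf1 had 72 of the 90 bases in common with Ikzf2, and Ikzf5 had 57. Within this stretch Ikzf1 shared at most 14 bases in a row with Ikzf2, and Ikzf5 at most 8. Over the whole coding sequences the longest runs shared with Ikzf2 were longer, at 17 bases for Ikzf1 and 11 for Ikzf5. Over all annotated transcripts the longest run shared by any pair of the 7 genes was 32 bases, between Ikzf2 and Ikzf4, and the longest in coding sequence was 26, between Ikzf1 and Ikzf3. Insm1 and Insm2, each a single-exon gene, shared a run of at most 24 bases.

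The cells were checked first against the genes that define them. Tbx2 summed to 3 counts over the 32 OHCs and to 397488 counts over the 67 cIHCs, where each cell had reads. The motor protein gene Slc26a5 (prestin) and Ocm, which encodes oncomodulin, had reads in all 32 OHCs. In cIHCs Slc26a5 was at 0.303 CPM and Ocm at 239.4 CPM, while the IHC gene Slc17a8 (vesicular glutamate transporter) had reads in all 67 cells. CPM here means counts scaled to the summed counts of a group (pooled) or of 1 cell, on the usual per-million scale. Total counts ran from 5656512 to 9287413 per OHC and from 4677682 to 13792672 per cIHC. A median of 6068.5 genes had reads in an OHC and 8546 in a cIHC, and this gap bears on any share of cells with reads of a low gene. OHCs with Y-linked reads (at least 10 CPM of 4 Y-linked genes) numbered 24 and those with Xist reads (at least 10 CPM) 4, against 12 and 55 among cIHCs, so the groups differed in this respect as well.

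Of the 7 genes, 2 were at least 2-fold lower in pooled cIHCs (Ikzf2 and Ikzf5) and 3 at least 2-fold higher (Ikzf3, Ikzf4 and Insm1). Insm2 was within 2-fold, and Ikzf1 had too few counts for a ratio. Over all 23306 genes with more than 3 counts in 1 or both groups, 18.8% were at least 2-fold lower and 42.0% at least 2-fold higher, 60.8% together. Only 6 of the 7 genes had a ratio, too few to tell whether the 2 lower and 3 higher genes depart from the whole table. Of the 7, only Ikzf2 and Ikzf5 reached 10 CPM in either group. Ratios below are log2 of cIHC over OHC, and over the 10041 genes that reached 10 CPM in 1 or both groups their median was 0.25, and 40.5% of them were at least 2-fold off in either direction.

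**Figure D1:**
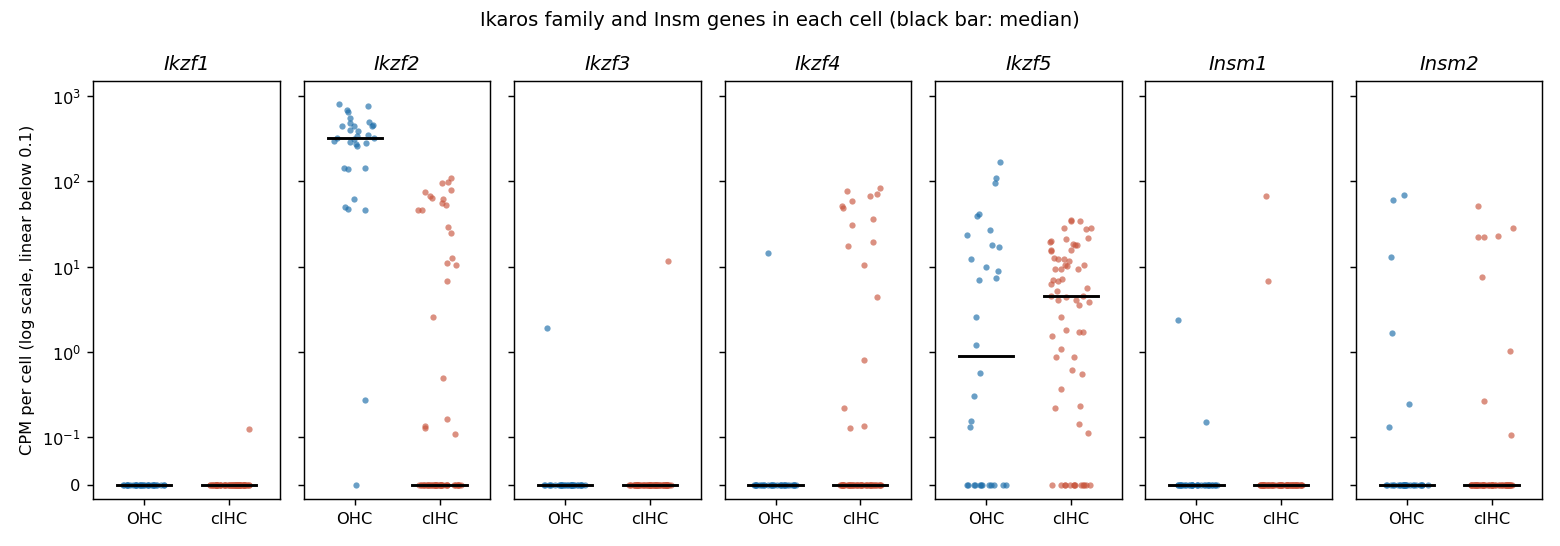
CPM of each of the 7 genes in each cell, on a log axis that is linear below 0.1, for 32 OHCs and 67 cIHCs; each point is 1 cell and the black bar is the group's median. Ikzf2 fills the OHCs between 45.7 and 799.8 CPM in 30 cells and lies at 0 in 43 cIHCs, Ikzf4 has points in 17 cIHCs and 1 OHC, and Ikzf1, Ikzf3 and Insm1 are at 0 in nearly every cell.

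Ikzf2 was the member with the highest level, and it was far lower in cIHCs. In OHCs its level per cell ranged from 0 through a median of 324.1 to 799.8 CPM, and in cIHCs from 0 through a median of 0 to 110.1 CPM. The groups overlapped only at their edges: 26 of 32 OHCs lay above the highest cIHC, and the OHC was higher in 94.1% of pairs of 1 OHC and 1 cIHC. Pooled, Ikzf2 stood at 340.3 CPM in OHCs (exact Poisson 95% interval 338.0 to 342.6) and at 16.6 CPM in cIHCs (16.2 to 16.9). The ratio was -4.36 (95% interval -4.39 to -4.33), a level 20.6-fold lower in cIHCs. Such intervals cover counting error only. Reads amplified by PCR were not traced to molecules, and variation from animal to animal is not included. Among genes with at least 10 CPM, 1.65% had a lower ratio than Ikzf2. In bulk sums like these, fewer cells with the transcript and less of it per cell cannot be told apart, so both were counted.

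Both the share of cells with Ikzf2 and the level in those cells were lower. Reads were present in 31 of 32 OHCs (96.9%, exact Clopper-Pearson 95% interval 83.8 to 99.9) and in 24 of 67 cIHCs (35.8%, 24.5 to 48.5). Thinning each cell to 5770000 reads dropped 3 OHCs and 1 cIHC for lack of depth, and the shares were then 96.6% and 36.4%. Among cells with reads the OHC median was 325.3 CPM and the cIHC median 37.3 CPM. The 24 cIHCs with Ikzf2 were of unlike kinds. In 5 of them the gene had only 1 to 3 counts, in 2 it lay above that but under 10 CPM, in 16 between 10 and 100 CPM, and in 1 above 100 CPM. The cIHC with the most Ikzf2 counts held 13.4% of the group's 9007, so no single cell made the pooled level.

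A pair of wild-type OHCs went against their group. OHC number 7 had no Ikzf2 read among 8292180 counts, and OHC number 21 had 2 counts among 7211269. Their Slc26a5 levels of 1824 and 1975 CPM and Ocm levels of 41598 and 39805 CPM were inside the range of the other OHCs, and neither had a Tbx2 read. OHC number 7 had no read of any of the 7 genes, the only OHC for which this held. The next lowest OHC, number 9, stood at 45.7 CPM of Ikzf2.

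Within the sex-linked classes the direction was the same. Among cells with Y-linked reads, pooled Ikzf2 was 337.3 CPM in 24 OHCs against 7.03 CPM in 12 cIHCs, a ratio of -5.58. Among cells with Xist reads it was 264.0 CPM in 4 OHCs against 18.2 CPM in 55 cIHCs, a ratio of -3.86. Reads were present in 33.3% of cIHCs with Y-linked reads (9.92 to 65.1) and in 36.4% of those with Xist reads (23.8 to 50.4).

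**Figure D2:**
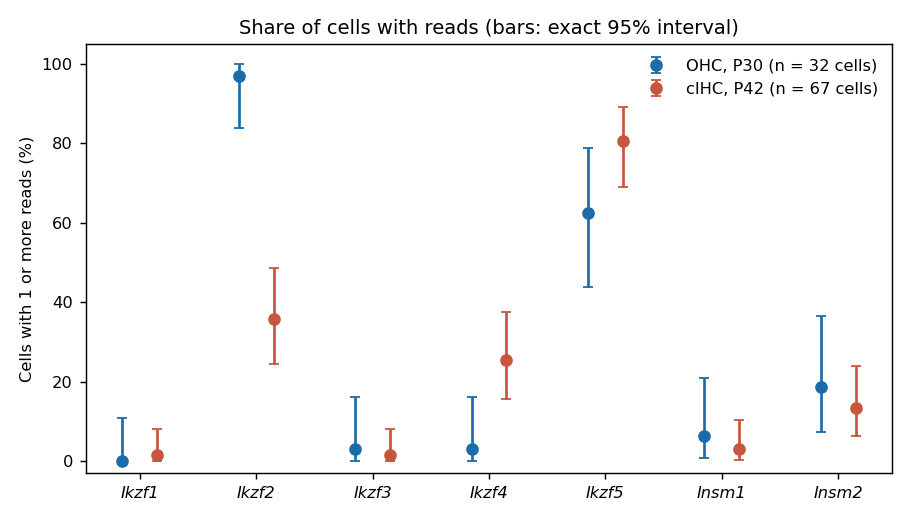
Percent of cells with 1 or more reads of each gene in OHCs (n = 32 cells) and cIHCs (n = 67 cells); points are shares and bars exact Clopper-Pearson 95% intervals. The intervals of Ikzf2 lie apart (83.8 to 99.9 against 24.5 to 48.5), those of Ikzf4 overlap slightly (an upper end of 16.2 against a lower end of 15.5), and those of the other 5 genes overlap.

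Ikzf4 (Eos), a close relative of Ikzf2, had the opposite pattern. Per cell it ranged from 0 through a median of 0 to 14.7 CPM in OHCs and from 0 through a median of 0 to 83.2 CPM in cIHCs. Reads were present in 1 of 32 OHCs (3.13%, 0.0791 to 16.2) and in 17 of 67 cIHCs (25.4%, 15.5 to 37.5), and 11 cIHCs lay above the single OHC. Pooled levels were 0.413 CPM (0.336 to 0.502) and 8.58 CPM (8.34 to 8.83), a ratio of 4.38 (4.09 to 4.68). All 100 OHC counts came from that 1 cell. Without the highest cell of each group no OHC count was left against 3975 cIHC counts. With the OHC sum set to 3 counts (the floor used for a sum of 0), the ratio was then 9.18. The exact 95% lower limit from the counts was 8.89. Of all genes with at least 10 CPM, 94.3% had a lower ratio than the 4.38 of Ikzf4. Ikzf4 itself did not reach 10 CPM, and ratios spread more widely once low genes are included. The 95th percentile was 7.66 over all 23306 genes with a ratio, against 4.98 over genes with at least 10 CPM.

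Reads of Ikzf4 and Ikzf2 occurred both together and apart in cIHCs. Of the 67 cIHCs, 7 had reads of both, 17 of Ikzf2 alone, 10 of Ikzf4 alone and 33 of neither. Spearman's rho of the levels of both genes over the 67 cells was 0.04, a value given as a description. The only OHC with Ikzf4 reads, number 14, was also 1 of the 4 OHCs with Ikzf2 between 10 and 100 CPM, at 47.9 CPM.

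Ikzf5 (Pegasus), the most divergent member of the Ikaros family, was found in more cIHCs but at a lower pooled level. Per cell it ranged from 0 through a median of 0.890 to 167.1 CPM in OHCs and from 0 through a median of 4.52 to 35.2 CPM in cIHCs. The groups overlapped widely: 5 OHCs lay above every cIHC, yet the cIHC was higher in 50.98% of pairs and the OHC in 41.7%. Reads were present in 62.5% of OHCs (43.7 to 78.9) and in 80.6% of cIHCs (69.1 to 89.2). Pooled levels were 18.5 CPM (17.95 to 19.04) and 8.33 CPM (8.09 to 8.58), a ratio of -1.15 (-1.21 to -1.09). Of the Ikzf5 counts of OHCs, 31.5% lay in the highest cell and 64.4% in the highest 3. With the top cell of either group left out, the ratio was -0.72, no longer 2-fold, and the medians per cell pointed the other way, with a ratio of 2.35. Among cells with Xist reads it was -0.03. Exons of Pstk on the opposite strand cover 81.3% of the Ikzf5 exon bases in GENCODE M21, and no strand setting is given in the sources used here. Reads of both genes therefore cannot be told apart over most of Ikzf5, and its values are uncertain. Pstk itself stood at 45.2 CPM in OHCs against 68.4 CPM in cIHCs.

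Ikzf1 and Ikzf3, the lymphoid members, were near 0 in both groups. Ikzf1 had no count in any OHC, for which 3 cells of 32 would be 9.38% and the exact upper bound is 10.9%, and 1 count in 1 cIHC. Ikzf3 had 11 counts in 1 OHC and 104 counts in 1 cIHC, or 0.0454 and 0.191 CPM pooled. Its ratio of 2.07 (1.17 to 3.12) thus compares 1 cell with 1 cell, and no count was left without them. That cIHC, number 49, also had the most supporting cell RNA of its group, with a sum of 1013 CPM over the 10 supporting cell genes, against 135.8 CPM in the next cell. It held 73.6% of the group's Gjb6 counts and 88.8% of its Sox9 counts, had the lowest Slc17a8 level (419.0 CPM) and had reads of 5 of the 7 genes. Lymphocyte genes were low as well: of 8 markers, 6 had no read in either group, among them Cd79a, Cd79b, Cd3e, Cd3g and Ms4a1, and the sum of the list was 2.22 CPM in OHCs against 1.27 CPM in cIHCs, led by Cd247 (2.202 CPM) and Lck (0.761 CPM), both of T cells. Of 10 macrophage markers, 7 had reads in OHCs, with a sum of 1.76 CPM, and 5 in cIHCs, with a sum of 50.1 CPM. C1qb, a complement gene, made up 48.2 CPM of the latter, and Fcer1g, an Fc receptor subunit gene, 1.42 CPM of the former; Tyrobp, Cx3cr1 and C1qa had no read in cIHCs. The highest of 10 supporting cell genes were Epyc in OHCs, at 20.0 CPM, and Gjb6 in cIHCs, at 8.72 CPM. The sum of that list was 39.2 CPM over OHCs and 25.5 CPM over cIHCs, and 59.2% of the OHC sum lay in OHC number 22 and 65.8% of the cIHC sum in cIHC number 49. With both cells left out, a setting chosen after seeing the data, the ratio of Ikzf2 was -4.36, of Ikzf4 4.36 and of Ikzf5 -1.16, while Ikzf3 had no cIHC count left. Of glia genes Mbp stood at 13.1 CPM over OHCs and 0.153 CPM over cIHCs. Of 5 neuronal markers Prph and Gap43 had no read, and Calb1, which hair cells also make, led the list at 383.4 and 8310 CPM. The other members, the neurofilament genes Nefm and Nefl, were higher in cIHCs too: Nefm stood at 19.2 CPM over OHCs and 176.1 CPM over cIHCs, with reads in 65 of 67 cIHCs, and Nefl at 53.9 and 123.6 CPM, with reads in 61. The part of such cells in the values of the 7 genes was not tested.

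Insm1 reads were rare at both ages. They came from 2 of 32 OHCs (6.25%, 0.766 to 20.8) and 2 of 67 cIHCs (2.99%, 0.364 to 10.4), with highest values of 2.34 and 67.4 CPM. Pooled levels were 0.0702 and 1.22 CPM, a ratio of 4.12 (3.43 to 4.91), but 1 cIHC held 92.5% of the 665 cIHC counts. Without the highest cell of each group 1 count and 50 counts were left; their ratio was 4.46 (1.91 to 9.79) from the counts as they are and 2.87 with the single count set to the floor of 3. Both cIHCs with Insm1 were without Ikzf2 reads, as were 43 of all 67 cIHCs. Both OHCs with Insm1 had Ikzf2 reads, as did 31 of all 32 OHCs.

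Insm2 reads came from 6 of 32 OHCs (18.8%, 7.21 to 36.4) and 9 of 67 cIHCs (13.4%, 6.33 to 23.97). The highest OHC reached 68.3 CPM and the highest cIHC 51.5 CPM, and the medians of both groups were 0. Pooled levels were 4.57 CPM (4.30 to 4.84) and 2.60 CPM (2.47 to 2.74), a ratio of -0.81 (-0.92 to -0.69). OHC number 25 alone gave 56.02% of the OHC sum. The cells with the most supporting cell RNA, OHC number 22 and cIHC number 49, gave 34.2% and 32.7% of the Insm2 counts of their groups, and the ratio was -0.79 without them. The ratio was -0.23 once the top cell of either group was left out, -1.01 (just past 2-fold) under median-of-ratios scaling, -1.08 in thinned cells and -2.42 among cells with Xist reads. In cIHCs each of the 9 cells with Insm2 reads also had reads of Ikzf5, which 54 of the 67 cells had. Among the 12 cIHCs with Y-linked reads none had Insm2 reads (exact upper bound 26.5%), and 9 of 55 cIHCs with Xist reads did.

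**Figure D3:**
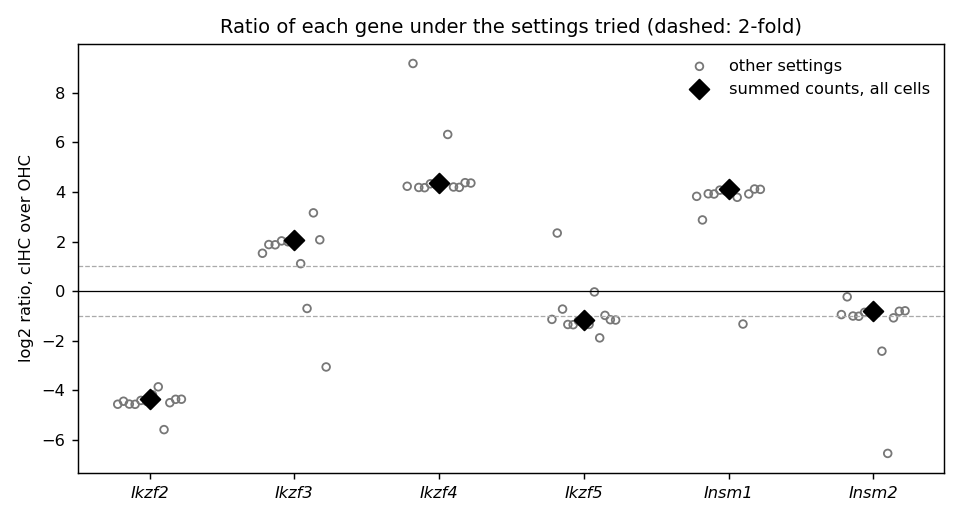
Log2 ratio of cIHC over OHC for the 6 genes with a ratio; the black diamond is the value from summed counts of all cells, open circles are the values under the other settings tried, and dashed lines mark 2-fold. Ikzf2 stays between -5.58 and -3.86, Ikzf4 stays above 4, and Ikzf3, Ikzf5 and Insm1 each have 1 or more values on the other side of 0.

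Levels of different genes were compared per kilobase of exon (all annotated exon bases of a gene, in GENCODE M21). In OHCs Ikzf2 led with 29.3 CPM per kilobase, followed by Ikzf5 with 3.23, Insm2 with 1.72, Ikzf4 with 0.0689, Insm1 with 0.0227 and Ikzf3 with 0.00519. In cIHCs Ikzf5 stood at 1.46 CPM per kilobase, Ikzf4 at 1.43 and Ikzf2 at 1.43, with Insm2 at 0.979 and Insm1 at 0.394. The pooled values of the leading 3 genes of the cIHCs were thus nearly equal, and they were not set against the spread between cells. With the same CPM divided by the length of the longest coding sequence, Ikzf2 stood at 10.4 in cIHCs, Ikzf5 at 6.63 and Ikzf4 at 4.17. Only the length leaves out untranslated exons there, while their reads stay in the counts. Genes with long untranslated exons are thereby raised. Ikzf2 has 1596 coding bases among 11613 exon bases, so its lead by this measure is not a level of coding reads. The order in OHCs was the same by either length.

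The number of these genes seen in 1 cell was small. Of the OHCs, 1 had reads of none, 7 of 1 gene, 19 of 2 genes, 4 of 3 genes and 1 of 4 genes. Of the cIHCs, 6 had reads of none, 30 of 1 gene, 17 of 2 genes, 13 of 3 genes and 1 of 5 genes. The usual pair in OHCs was Ikzf2 with Ikzf5, in 20 of 32 cells. The same pair occurred in 20 of 67 cIHCs, where 24 cells had reads of Ikzf2 and 54 of Ikzf5. The overlap of Ikzf5 with Pstk makes these counts uncertain.

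**Figure D4:**
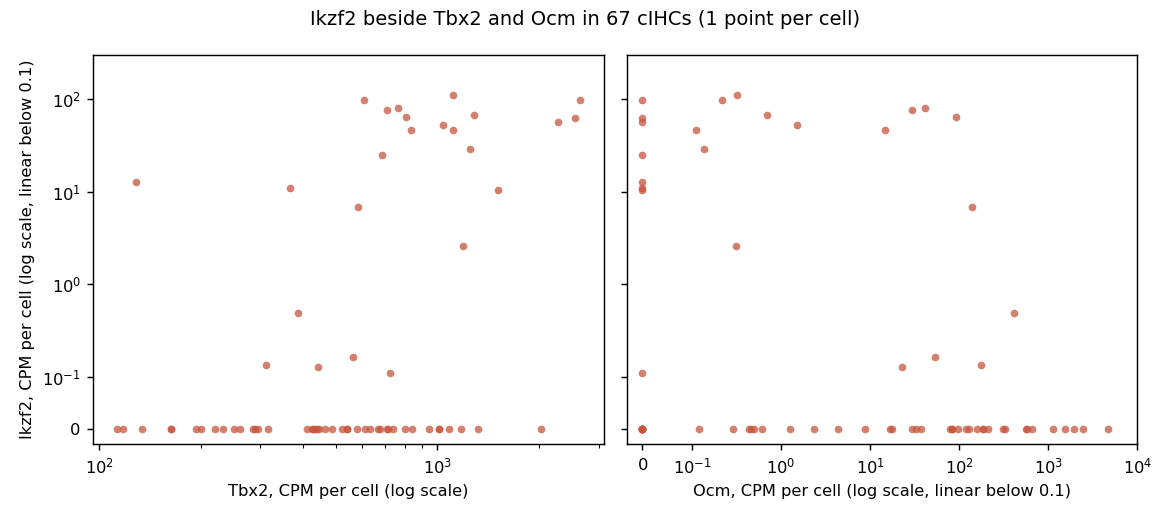
Ikzf2 level against Tbx2 level (left, log axis) and Ocm level (right, log axis that is linear below 0.1) in CPM, 1 point per cIHC (n = 67 cells). Cells with much Ikzf2 lie mostly toward high Tbx2 (Spearman's rho 0.45) and toward low Ocm (rho -0.31), with many cells at 0 on the Ikzf2 axis.

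Because the groups form separate clusters, Ikzf2 was set beside other genes only within a group, with Spearman's rho of CPM per cell as a description without a p-value. The cells share depth and amplification, and Ikzf2 is at 0 in 43 of the 67 cIHCs. Within cIHCs rho was 0.45 with Tbx2, -0.40 with Otof (otoferlin, of IHC synapses), -0.31 with Ocm, 0.21 with Slc26a5 and -0.13 with Slc17a8. Slc26a5 had reads in only 7 of the 67 cIHCs, and in 5 of these only 1 to 3 counts. Higher Ikzf2 thus went with lower, not higher, Ocm among these cells. Ikzf2 also had a rho of 0.37 with total counts and 0.34 with the number of genes with reads, and Tbx2 had 0.32 and 0.30 with the same measures. In cells thinned to 1 depth the values for Tbx2, Otof and Ocm were 0.46, -0.40 and -0.31 over 66 cIHCs. Without the cIHC with the highest Ikzf2 level they were 0.43, -0.40 and -0.30.

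Single cells show the same mixture. The cIHC with the most Ikzf2, number 58 at 110.1 CPM, had 1109 CPM of Tbx2, 0.323 CPM of Ocm and no Slc26a5 read. The cIHC with the most Tbx2, number 44 at 2643 CPM, had 97.6 CPM of Ikzf2, the next highest level. Conversely, number 49 had 12.8 CPM of Ikzf2 beside only 128.6 CPM of Tbx2; it is the cell with the most supporting cell RNA named above.

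Within the 32 OHCs Ikzf2 had a rho of -0.25 with Slc26a5 and near 0 (-0.001) with Ocm. The 5 genes most like Ikzf2 in cIHCs, of 11874 with reads in at least 20% of cells, were Asphd2 (rho 0.59), Socs2 (0.57), Nell2 (0.54), Gm13394 (0.53) and Msx1 (0.52). Socs2 encodes a suppressor of cytokine signalling, Nell2 a secreted protein of neurons and Msx1 a homeobox factor. In OHCs, of 9289 genes, they were the acid-sensing channel gene Asic1 (0.60), Gm11478 (0.57), Ccpg1os (0.56), the ubiquitin ligase gene Mkrn1 (0.56) and Rbm18 (0.56). No gene was on both lists. These are the extremes of many values, of which 1 in 100 lay above 0.38 in cIHCs and above 0.40 in OHCs.

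Genes of complexes tied to Ikaros and Insm proteins, and other zinc finger factors with the SNAG motif of Insm proteins, were examined as 4 lists. The lists held 38 different genes, 29 of which had at least 10 CPM in 1 or both groups. Of these 29, 2 were at least 2-fold lower and 3 at least 2-fold higher in cIHCs, 6.90% and 10.3%. One of the lower genes was Gfi1, a SNAG factor and not a co-factor gene. Over all 10041 genes at that level 14.3% were lower and 26.3% higher, so both shares of the listed genes lay below those of the table. The 3 higher genes became 8 with medians per cell and 9 among cells with Xist reads, so the share of higher genes depended on the way cells were combined or chosen. Their median ratio was 0.04, against 0.25 for all genes.

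**Figure D5:**
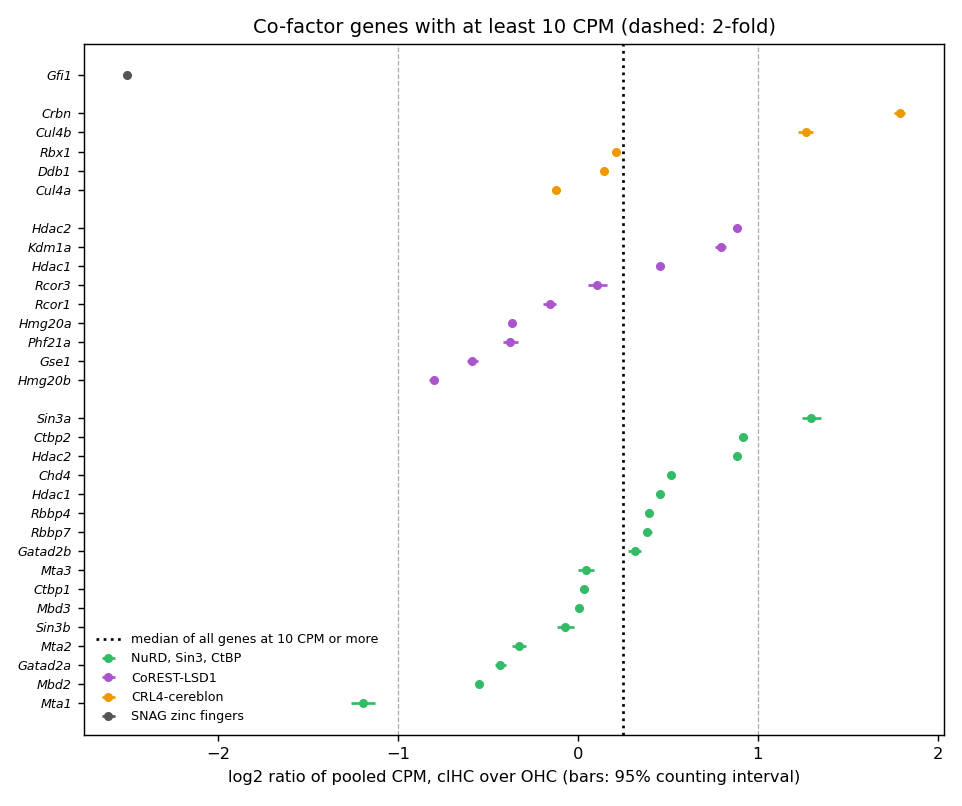
Log2 ratio of pooled CPM, cIHC over OHC, for the co-factor genes and the SNAG factor Gfi1, all with at least 10 CPM, grouped by list. Bars are exact 95% counting intervals, the dotted line is the median of all genes at that level (0.25) and dashed lines mark 2-fold. Most points lie between the dashed lines; Gfi1 stands far to the left, at -2.51, and Crbn is the highest, at 1.79.

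Ikaros proteins recruit the NuRD nucleosome remodelling complex, Sin3 and CtBP. Of 17 such genes 16 had at least 10 CPM, 1 was at least 2-fold lower and 1 at least 2-fold higher, with a median ratio of 0.18. The remodelling enzyme gene Chd4 had reads in 31 of 32 OHCs and in all 67 cIHCs. The scaffold gene Sin3a was higher, at 34.8 against 14.2 CPM (ratio 1.30), although 1 OHC held 73.8% of its OHC counts and the ratio was 3.01 without the highest cells. Mta1, a NuRD subunit, was lower, at 6.68 against 15.2 CPM (ratio -1.19, or -0.91 without the highest cells). Ctbp2, which also encodes the synaptic ribbon protein RIBEYE, had 166.6 CPM in cIHCs and 88.1 CPM in OHCs, a ratio of 0.92. The deacetylase gene Hdac2 had 150.0 and 81.3 CPM, a ratio of 0.88.

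Insm1 works through the CoREST complex with the demethylase LSD1. Of its 10 genes 9 had at least 10 CPM, and none passed 2-fold in either direction, at a median ratio of -0.16 that turned to 0.30 without the highest cell of each gene and group, where Hdac2 passed 2-fold at 1.05. Kdm1a, which encodes LSD1, had 76.5 CPM in cIHCs and 44.2 CPM in OHCs (ratio 0.79). Hmg20b and Gse1, subunits of the same complex, had ratios of -0.80 and -0.59, and Gse1 shares 26.6% of its exon bases with Gins2 on the opposite strand.

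Cereblon, the substrate receptor through which thalidomide-like drugs have some human Ikaros proteins degraded, was among the higher genes. Its gene Crbn had 125.8 CPM in cIHCs and 36.4 CPM in OHCs (ratio 1.79, 1.76 to 1.82). Reads were present in 65 of 67 cIHCs and 14 of 32 OHCs, with medians per cell of 108.4 and 0 CPM and highest cells of 372.8 and 214.9 CPM. The ligase scaffold gene Cul4b had a ratio of 1.27, at 49.2 against 20.5 CPM. Rbx1 and Ddb1, of the same ligase, had ratios of 0.21 and 0.15 and lie below the median of all genes. Crbn and Cul4b were the only genes of this list of 5 at least 2-fold higher, and none was 2-fold lower.

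Insm proteins share the SNAG repressor motif with Gfi1 and the Snail factors. Of 8 other SNAG genes only Gfi1, a transcription factor that hair cells need to survive, had at least 10 CPM. It ranged from 0 through a median of 309.5 to 1259 CPM in OHCs and from 0 through a median of 36.7 to 434.7 CPM in cIHCs, so the groups overlapped. Pooled it was at 356.3 and 62.7 CPM, a ratio of -2.51 (-2.52 to -2.49), which is 5.68-fold lower in cIHCs. Gfi1 had reads in 53 of 67 cIHCs, and Ikzf2 in 24. Within cIHCs its rho with Ikzf2 was -0.27. Gfi1b, Snai2 and Ovol1 had no count in any cell.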

How the data were processed

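The authors deposited 1 table of whole-number read counts per gene and cell, which per the labels' protocols came from Smart-Seq HT cDNA tagmented with a TruePrep kit. The submitters' processing notes list HISAT2 2.2.1, StringTie 2.2.1, featureCounts 2.0.1 and the build mm10; the annotation and strand setting are not given in the sources used here. Each column was matched to its cell by title; 0 columns belonged to no sample, and 0 pairs of columns were identical. No filter on cells or doublets was used, because cells were picked singly.

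Counts were summed per group and divided by the group's total (CPM). In ratios a sum under 3 counts over the group was set to 3, and genes with at most 3 counts in both groups got no ratio. Intervals are exact Poisson, conditional binomial or Clopper-Pearson at 95%. The ratio step was tested on simulated data. GENCODE M21, which holds 96.4% of the symbols and need not be the authors' annotation, gave coordinates, lengths and overlaps. Computations ran in Python 3.11.15 (scipy 1.17.1, pandas 2.3.3, matplotlib 3.10.9, numpy 2.4.6), and TMM factors came from edgeR 4.0.16 in R 4.3.3.

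The 7 genes and all lists were chosen with earlier results of these data known. Named beyond the 7 are Tbx2, Slc26a5, Ocm and Slc17a8, up to 4 genes per co-factor list with the largest ratios, the 5 genes per group with the highest rho with Ikzf2, and the highest gene of each foreign cell list, with some genes and sequences not reported here; Tyrobp, Cx3cr1, C1qa, Pstk, Chd4, Otof, Gfi1b, Snai2 and Ovol1, the lymphocyte and neuronal genes without reads, and the single cells described, were chosen after their values were seen. As alternatives, CPM was averaged over cells or its median taken, and the top cell of each gene was dropped. Others were TMM and median-of-ratios scaling, totals without mitochondrial or the 10 most abundant genes, leaving out cells with few genes, cells with Xist or Y-linked reads only, thinned cells, leaving out the cell of each group with the most supporting cell reads, a floor of 1 count, a 4-fold limit, other minimum levels, and coding length.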

Additional observations from a re-analysis of the deposited data

How the results depend on the processing

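No paired analysis was possible because cell numbers in the titles pair nothing across groups and no result rests on a test. The direction of Ikzf2 was the same under each alternative that gave a value; medians over cells gave none, because the cIHC median is 0. Its ratio of -4.36 was -4.56 as a mean over cells, -4.44 without the highest cells, -4.55 with TMM factors, -4.56 after median-of-ratios scaling, -4.41 and -4.44 with totals without mitochondrial genes and without the most abundant genes, -4.18 without cells with few genes, -3.86 for Xist cells alone, -5.58 for cells with Y-linked reads alone, and -4.50 in thinned cells. The median of all genes moved by -0.19 under TMM and by -0.20 under the other scaling.

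The count of 2 members at least 2-fold lower was 0 by medians over cells, 1 without the highest cells and 1 at a 4-fold limit. It was 4 among cells with Y-linked reads, where Insm1 and Insm2 had no cIHC count left and the floor set their ratios. It was 3 after either scaling (TMM or median-of-ratios) and without the cells with the most supporting cell reads. In thinned cells and in Xist cells the count stayed at 2, but Insm2 took the place of Ikzf5. Ikzf5 then stood at -0.98 and -0.03, and Insm2 at -1.08 and -2.42. The count of 3 higher became 1 with the median and 1 among cells with Y-linked reads. It became 2 without the highest cells and without the cells with the most supporting cell reads. Directions reversed for Ikzf5 by medians over cells, at 2.35. Among cells with Y-linked reads they reversed for Ikzf3, at -0.70, and Insm1, at -1.32, where no cIHC count was left and the floor sets the ratio. Without the cells with the most supporting cell reads Ikzf3 was at -3.06, likewise set by the floor. The count of 2 co-factor or SNAG genes at least 2-fold lower became 1 with the median, without the highest cells, without cells with few genes, in thinned cells and at 4-fold. It became 3 after median-of-ratios scaling, for Xist cells alone, for cells with Y-linked reads alone and with no filter. The 3 higher ones became 8 with the median, 9 among cells with Xist reads, 0 at 4-fold, 6 with no filter on low values, and 4 without the highest cells, among cells with Y-linked reads and at a minimum of 1 CPM. Beyond the depth behind the counts, the share of cells with 0 reads limits what can be said of Ikzf1, Ikzf3 and Insm1. The thinned correlations and the leaving out of cells with supporting cell reads were chosen after seeing the data.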
